A study of Mus musculus with 20 samples.

Results

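Cytochrome P450 enzymes outside the large drug- and fatty acid-metabolising subfamilies Cyp2b, Cyp2c, Cyp3a and Cyp4a, and outside bile acid and cholesterol synthesis, were compared between the livers of 4 mouse strains. Members were all genes whose probe set carried 1 symbol of the form Cyp, number, letters, number. Left out were those 4 subfamilies and Cyp1a2, Cyp2e1, Cyp7a1, Cyp7b1, Cyp8b1, Cyp27a1, Cyp39a1, Cyp46a1 and Cyp51. This gave 49 of 19938 genes, each with 1 probe set. Liver RNA came from 20 male mice, 5 a strain, with 1 array per animal. The strains were NZO/Hl (NZO here), an inbred model of obesity and diabetes, C3H, 129P2/OlaHsd (129P2 here) and C57/Bl6 (B6 here). The labels name no transgene and no agent. At sampling the mice were aged 6 weeks, and from weaning at 21 days they were fed a diet that drew 45% of its energy from fat. As far as the labels tell, the animals thus differed only in strain and its source. The strain labels name Jackson Lab for C3H and the German Diabetes Centre Dusseldorf for NZO, and spell out no source for 129P2 and B6. Strain cannot be told apart from origin, nor from litter or cage, which the labels do not tie to samples. P-values measure the spread between these animals.

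P450 enzymes are haem proteins that insert 1 oxygen atom into their substrate. Most sit in the endoplasmic reticulum and take electrons from P450 reductase and cytochrome b5, while mitochondrial members take them from ferredoxin. In mouse liver the Cyp2d, Cyp2a and Cyp2j enzymes act on steroids, drugs and arachidonic acid, and the Cyp4f enzymes hydroxylate leukotrienes and vitamin side chains. Single enzymes have defined hormonal roles: Cyp17a1 and Cyp21a1 make steroid hormones, Cyp2r1 makes calcifediol, the circulating form of vitamin D, and the Cyp26 enzymes clear retinoic acid.

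The Cyp2d genes, 10 of the 49 members, lie in a tandem cluster. Upstream sequences are shown for those of them whose promoter holds the TATA-like run named next. The likeness of these windows thus does not stand for the whole cluster. The windows below, from RefSeq on GRCm38.p6, are 109 bases long and end at the TATA-like run TTTATAAGG. Capitals mark that run, the run ACAAAGGGCA and the run TTCCGGGC. The last is the core of the sex difference information element of the Cyp2d9 promoter, where the GA-binding protein is known to bind in male mouse liver. Promoters of 36 of the 49 members were in the table used here. The windows lie at chr15:82452249-82452357 on the plus strand for Cyp2d9, and on the minus strand at chr15:82407217-82407325 for Cyp2d10, chr15:82394057-82394165 for Cyp2d11, chr15:82764205-82764313 for Cyp2d40 and chr15:82794268-82794376 for Cyp2d26.
Cyp2d9: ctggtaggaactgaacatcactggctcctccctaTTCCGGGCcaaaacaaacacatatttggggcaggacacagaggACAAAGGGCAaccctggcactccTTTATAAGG
Cyp2d10: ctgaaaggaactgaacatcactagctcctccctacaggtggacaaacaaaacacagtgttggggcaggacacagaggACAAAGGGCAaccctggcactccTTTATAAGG
Cyp2d11: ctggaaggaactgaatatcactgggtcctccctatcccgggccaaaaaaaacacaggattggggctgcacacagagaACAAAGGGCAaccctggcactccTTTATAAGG
Cyp2d40: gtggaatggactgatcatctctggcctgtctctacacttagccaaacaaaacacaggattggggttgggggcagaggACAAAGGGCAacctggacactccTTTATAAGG
Cyp2d26: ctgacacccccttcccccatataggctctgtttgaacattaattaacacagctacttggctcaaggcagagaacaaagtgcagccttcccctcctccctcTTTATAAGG

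Aligned with Cyp2d9, the window of Cyp2d11 was 89.9% identical, that of Cyp2d10 87.4%, that of Cyp2d40 75.5% and that of Cyp2d26 58.4%. These shares include the TATA-like run, which all windows hold by choice, and gaps were allowed. Unrelated windows were not aligned, so the identity that such windows would give is not known here. TTCCGGGC, searched on both strands, was in the Cyp2d9 window and in no other of the 42 member promoters (some of the 36 genes have more than 1), against 1.4% of all 32851 promoters of the same length. ACAAAGGGCA was in the promoters of Cyp2d9, Cyp2d10, Cyp2d11 and Cyp2d40, 13 bases before the TATA-like run in each, and in 0.119% of all promoters. TTTATAAGG was in these 4, in Cyp2d26 and in Cyp26a1, and in 0.28% of all promoters. The motifs do not overlap each other, and ACAAAGGGCA and TTTATAAGG were picked from the aligned windows.

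Of the 49 members, 30 had a value above the 40th percentile of their own array on at least 5 arrays and were tested, 26 of them on all 20 arrays. A value at or under that percentile is called dim here. The plot of probe set signal gives all 49. Cyp2f2, which activates naphthalene and is known from periportal hepatocytes and airway club cells, lay 6.63 to 7.35 log2 units above the percentile over the 20 arrays. Cyp2d26 (6.33 to 6.79), Cyp2a12 (5.97 to 6.63), an enzyme that hydroxylates testosterone and bile acids, and Cyp2j5 (5.49 to 5.99), an arachidonic acid epoxygenase, were also far above it on each array. Signals of different probe sets depend on their probes as well as on RNA, so their order is not an order of transcript amounts.

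**Figure D1:**
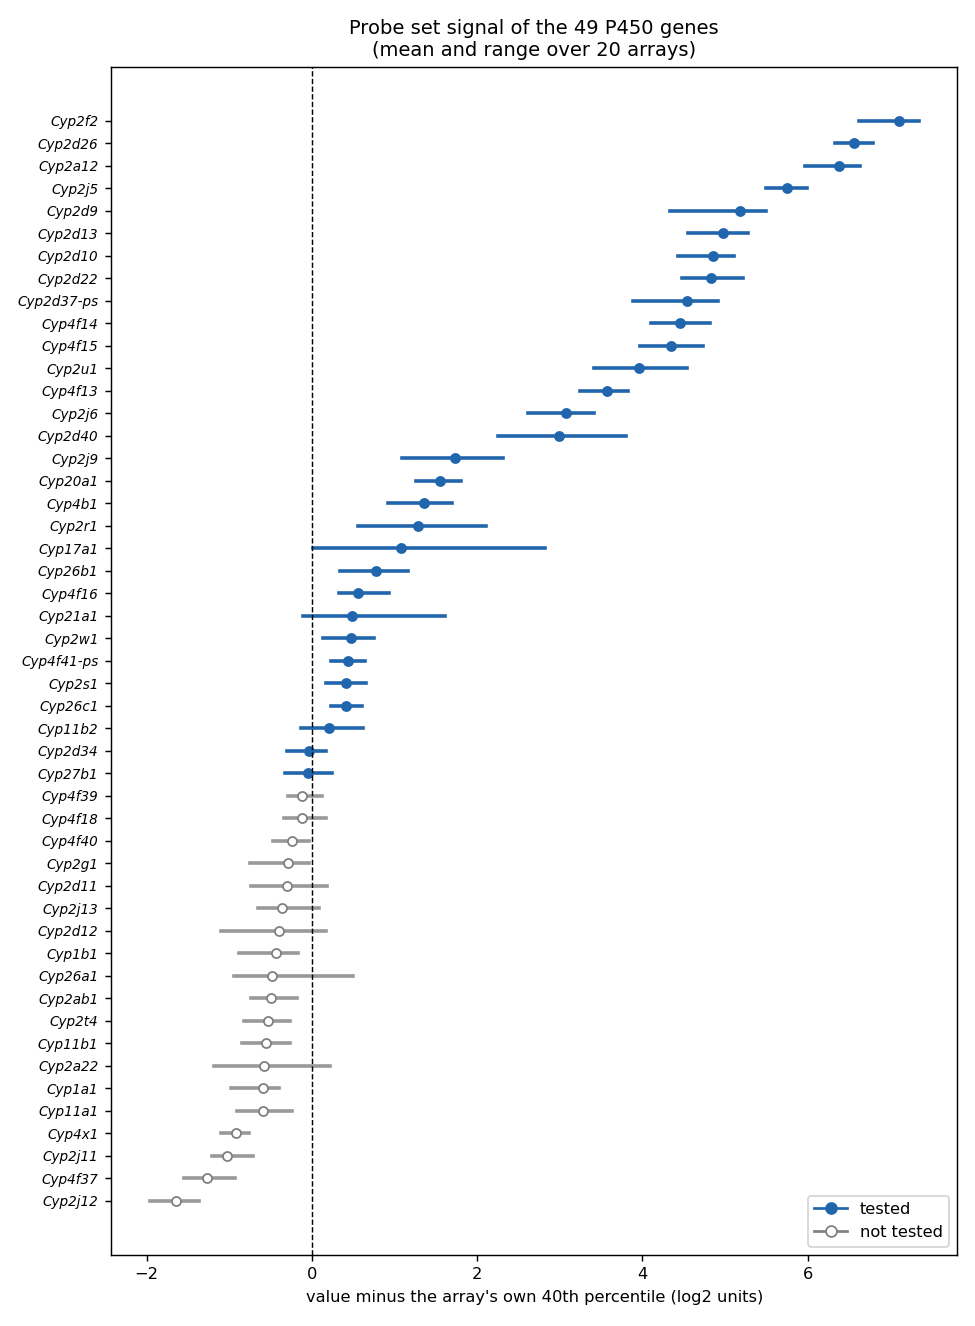
Signal of each of the 49 P450 probe sets on the x axis, as log2 value minus the 40th percentile of the same array, with the mean as a point and the range over 20 arrays as a line. Filled blue points are the 30 tested members and open grey points the 19 that were not tested, and the dashed line at 0 is the percentile.

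The other 19 members were dim on at least 17 arrays, and 12 of them on all 20. Dim on all 20 were Cyp1a1 and Cyp1b1, enzymes induced through the aryl hydrocarbon receptor, Cyp11a1 and Cyp11b1, which act in adrenal steroid synthesis, and Cyp2ab1, Cyp2g1, Cyp2j11, Cyp2j12, Cyp2t4, Cyp4f37, Cyp4f40 and Cyp4x1. Cyp2a22, Cyp2d11, Cyp2d12, Cyp2j13, Cyp26a1, Cyp4f18 and Cyp4f39 were bright on 1 to 3 arrays each. Cyp26a1, the main retinoic acid hydroxylase of liver, was above the percentile on 1 array only, 129P2 replicate 4 with a log2 value of 7.12, against 5.90 to 6.05 in the other 129P2 animals and 5.68 to 6.62 in the other strains. These 19 did not enter the fit reported here. Cyp2a4 and Cyp2a5 share 1 probe set, as do Cyp4v3 and Klkb1, and these were not analysed here.

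Strain differences were called at a Benjamini-Hochberg adjusted p under 0.05 from 1 limma fit over all 14190 tested genes and all 4 strains. Differences are in log2 units, so 1 is a 2-fold difference, and a positive value means higher in the strain named first. By the moderated F-test over the 4 strains, 5 of the 30 tested members (16.7%) were called, Cyp17a1, Cyp21a1, Cyp2d40, Cyp2r1 and Cyp4f15, against 17% of all tested genes. In single comparisons 7 of the 30 were called at least once, with Cyp2d22 and Cyp4b1 added, against 21.7% of all tested genes. NZO minus C3H held 2 called members (6.67%, against 6.6% of all genes), 1 higher and 1 lower in NZO, beside 3.51% and 3.09% of all genes in these directions. NZO minus 129P2 held 5 (16.7% against 8.9%), 2 higher and 3 lower in NZO, beside 4.29% and 4.61%. NZO minus B6 held 4 (13.3% against 10.3%), 1 higher and 3 lower in NZO, beside 3.63% and 6.64%. C3H minus 129P2 held 1 (3.33% against 5.03%), lower in C3H, where 2.25% of all genes were higher and 2.78% lower. C3H minus B6 held 3 (10% against 8.05%), all lower in C3H, where 2.71% of all genes were higher and 5.34% lower. 129P2 minus B6 held 1 (3.33% against 6.19%), lower in 129P2, where 2.11% of all genes were higher and 4.08% lower. The median absolute difference of the tested members was 0.06, 0.10, 0.11, 0.10, 0.10 and 0.07 in these 6 comparisons, beside 0.08, 0.09, 0.12, 0.09, 0.12 and 0.10 over all tested genes. The comparisons share animals, so their counts are not independent of each other.

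**Figure D2:**
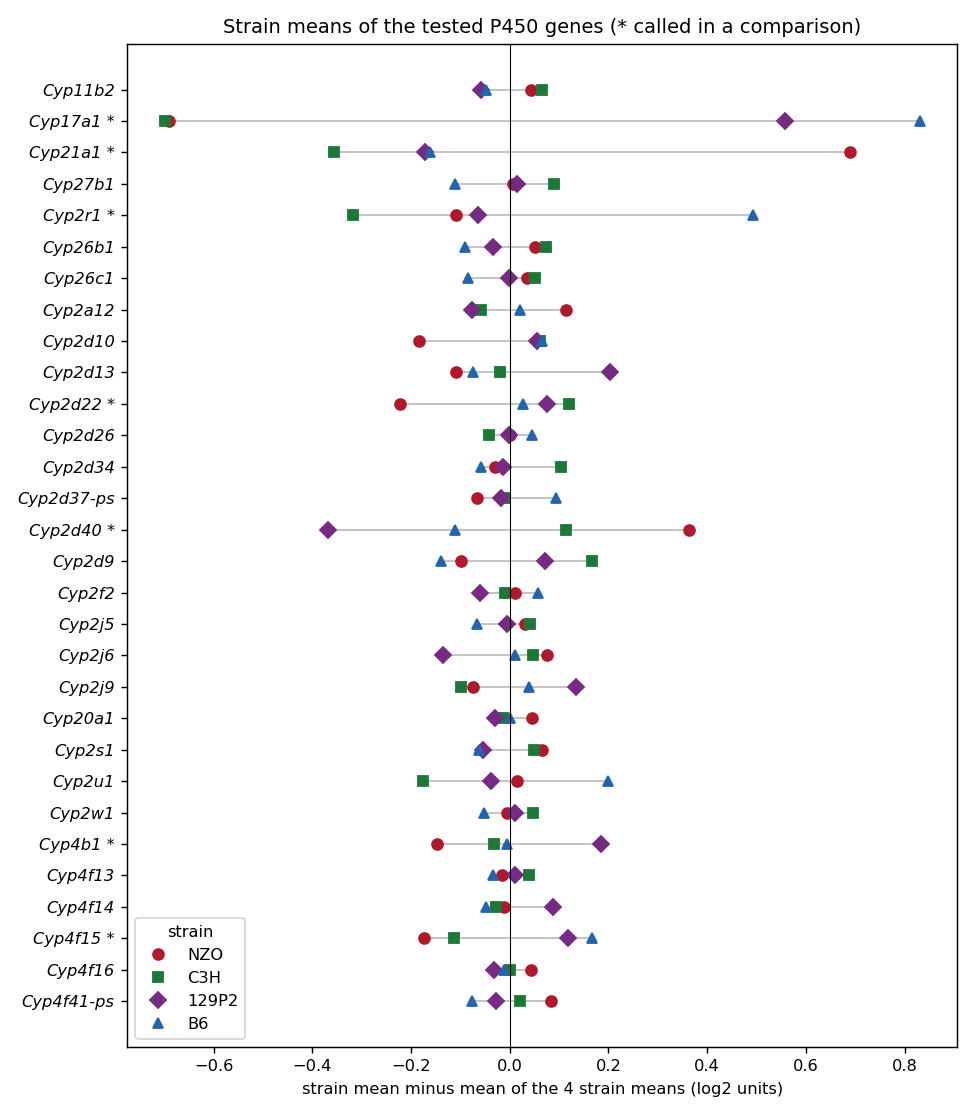
Strain means of the 30 tested P450 genes on the x axis, as the difference from the mean of the 4 strain means in log2 units, with 1 symbol per strain and genes grouped by subfamily. Cyp17a1 and Cyp21a1 spread over more than 1 log2 unit, and 26 of the 30 genes over less than 0.5.

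Of the steroidogenic enzymes, Cyp17a1 (probe set 10468239), the 17α-hydroxylase and 17,20-lyase of androgen synthesis, divided the strains into pairs. It was low in NZO and C3H liver and high in 129P2 and B6 liver. Its log2 values were 7.02, 7.32, 6.97, 7.03 and 6.65 in NZO. They were 7.10, 7.02, 6.87, 7.18 and 6.78 in C3H. The 129P2 animals had 8.64, 7.95, 8.34, 8.50 and 7.79, and the B6 animals 7.97, 8.05, 9.05, 9.36 and 8.14. Every NZO and C3H value thus lay below every 129P2 and B6 value. No value was dim, but those of NZO lay only 0.01 to 0.63 log2 units above the percentile, and those of C3H 0.15 to 0.54. The 129P2 values lay 1.17 to 2.02 above it and the B6 values 1.39 to 2.82. The percentages given next are thus ratios of signal, with NZO and C3H near the percentile. The means were 7.0 ± 0.24 in NZO, 6.99 ± 0.17 in C3H, 8.24 ± 0.36 in 129P2 and 8.52 ± 0.64 in B6 (SD, n = 5), and the B6 animals held the widest spread of any tested member in any strain.

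The NZO signal of Cyp17a1 was 42.1% of that in 129P2 (log2 difference -1.25 ± 0.22, SE; limma adjusted p = 0.000418) and 34.9% of that in B6 (-1.52 ± 0.22; adjusted p = 4.25e-05). The C3H signal was 41.9% of that in 129P2 (-1.26 ± 0.22; adjusted p = 0.000549) and 34.6% of that in B6 (-1.53 ± 0.22; adjusted p = 4.68e-05). Each of these 4 differences gave p = 0.00794 in an exact two-sided permutation test, the smallest that 252 relabellings allow (0.0179 adjusted over 18 such tests). These tests were run only on Cyp17a1, Cyp21a1 and Cyp2r1, picked for the largest strain differences among the tested members. The adjustment does not cover that choice, so the tests check the fit on the same values and are no independent support. Within each pair no difference was called: NZO minus C3H was 0.01 (95% interval -0.44 to 0.46) and 129P2 minus B6 was -0.27 (-0.72 to 0.18). Tspo, the outer mitochondrial membrane protein linked to cholesterol import, was on the same list of steroid hormone genes and was called in the same 4 comparisons, lower by 0.41 and 0.36 in NZO than in 129P2 and B6 and by 0.39 and 0.33 in C3H than in 129P2 and B6 (each SE 0.08).

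Cyp21a1 (probe set 10450272), the steroid 21-hydroxylase known from the adrenal cortex, was highest in NZO. The NZO animals had log2 values of 7.95, 8.30, 7.61, 7.86 and 7.20, and the C3H animals 6.75, 6.52, 6.61, 6.97 and 6.84. Values were 6.95, 7.11, 6.85, 6.93 and 6.77 in 129P2 and 6.94, 7.61, 6.62, 6.80 and 6.69 in B6. All NZO values lay above those of C3H and 129P2, while B6 replicate 2 (7.61) reached into the NZO range. Means were 7.78 ± 0.41 in NZO, 6.74 ± 0.18 in C3H, 6.92 ± 0.13 in 129P2 and 6.93 ± 0.40 in B6 (SD, n = 5).

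NZO was 2.06-fold above C3H in Cyp21a1 signal (log2 difference 1.05 ± 0.17, SE; limma adjusted p = 0.000212), 1.82-fold above 129P2 (0.86 ± 0.17; adjusted p = 0.00147) and 1.80-fold above B6 (0.85 ± 0.17; adjusted p = 0.00164). The exact two-sided permutation p was 0.00794, 0.00794 and 0.0238 in these comparisons (adjusted 0.0179, 0.0179 and 0.0476 over the 18 tests). Differences among C3H, 129P2 and B6 were at most 0.19 in size, and none was called. Cyp21a1 was dim on 2 of the 5 C3H arrays, and with those values raised to the percentile NZO minus C3H was 1.01. Its 129P2 values lay 0.15 to 0.41 log2 units above the percentile and its B6 values 0.06 to 0.98. The call against B6 was lost in the test against a fold of 1.2 (adjusted p = 0.0570). Cyp21a1 has a near-identical pseudogene copy, Cyp21a2-ps, in the annotation, so which copy the probes bound is uncertain.

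**Figure D3:**
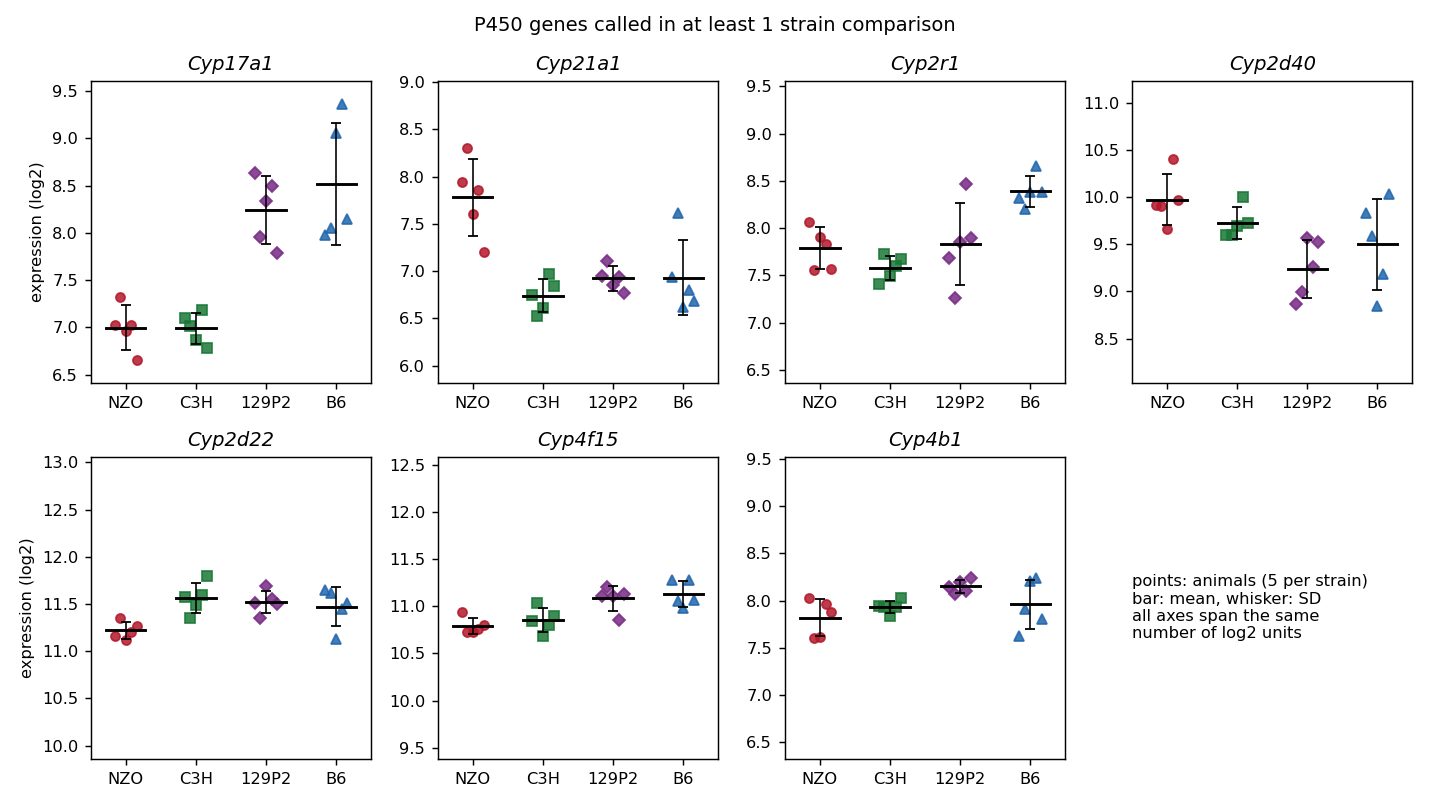
Log2 expression of the 7 P450 genes called in at least 1 comparison, on the y axis, by strain. Points are single animals, the bar is the mean and the whisker the SD (n = 5), and all panels span the same number of log2 units; Cyp17a1 is low in NZO and C3H, Cyp21a1 high in NZO and Cyp2r1 high in B6.

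Defining genes of steroid-making tissue were dim: Star, Cyp11a1, Cyp11b1, Hsd3b1 and Hsd17b3 were dim on all 20 arrays. Cyp11b2, the aldosterone synthase, was above the percentile on 19 arrays with values of 6.49 to 7.33, and its differences were at most 0.12 in size. Its values lay near the percentile, at -0.13 to 0.62 log2 units from it. Of the steroid hormone list, 4 of 9 measured genes were tested. The called ones, Cyp17a1, Cyp21a1 and Tspo, have the values given above, beside 21.7% of all tested genes called in at least 1 comparison.

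In the gene order of GRCm38.p6, 3 of the 6 tested genes nearest to Cyp21a1 (3 on each side) were called in at least 1 comparison, beside the 21.7% of all tested genes given above. These were C4b and C4a, complement genes that flank it and are near-identical copies of each other, and Tnxb. Atf6b, Stk19 and Dxo were not called. C4a log2 values were 10.48, 9.86, 10.08, 10.05 and 9.87 in NZO, 8.01, 7.96, 8.81, 8.51 and 8.26 in C3H, 9.31, 9.18, 9.34, 9.01 and 9.15 in 129P2 and 9.30, 9.35, 8.72, 9.16 and 8.81 in B6. C4a was higher in NZO than in C3H by 1.76 ± 0.15, than in 129P2 by 0.87 ± 0.15 and than in B6 by 1.0 ± 0.15 (SE; limma adjusted p = 3.7e-08, 0.000475 and 0.000102). Unlike Cyp21a1, it was also called between C3H and the other strains (-0.89 ± 0.15 against 129P2 and -0.76 ± 0.15 against B6). C4b was lowest in C3H: NZO minus C3H was 1.79 ± 0.09, and C3H was also called lower than 129P2 (-1.82 ± 0.09) and B6 (-1.75 ± 0.09). Its differences of NZO from 129P2 and B6, -0.03 and 0.04, were not called. Tnxb, which encodes an extracellular matrix protein, was lower in NZO (-0.34 ± 0.08) and C3H (-0.29 ± 0.08) than in B6 (limma adjusted p = 0.00931 and 0.0372), a direction opposite to that of Cyp21a1 in NZO. Whether the probe set of Cyp21a1 takes up signal from C4 transcripts was not tested.

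Of the 6 tested neighbours of Cyp17a1, 2 were called in a comparison, beside the same 21.7%. Around the other called members the count was 3 of 6 for Cyp4b1, whose called neighbours are Cyp4a genes, 1 of 6 each for Cyp2r1 and Cyp2d22, and 0 of 6 by limma for Cyp2d40 and Cyp4f15. As3mt, an arsenic methyltransferase, was lower in C3H than in 129P2 (-1.12 ± 0.13) and B6 (-1.02 ± 0.13), and lower in NZO than in 129P2 (-0.46 ± 0.13; limma adjusted p = 0.0310), with -0.36 ± 0.13 against B6 (adjusted p = 0.0874). It was also higher in NZO than in C3H (0.66 ± 0.13; adjusted p = 0.00219), where Cyp17a1 was not called. Wbp1l, the other, was lower in NZO (-0.37 ± 0.08) and C3H (-0.36 ± 0.08) than in 129P2. As positions of both genes come from an annotation of C57BL/6J, strain differences in gene order were not examined.

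**Figure D4:**
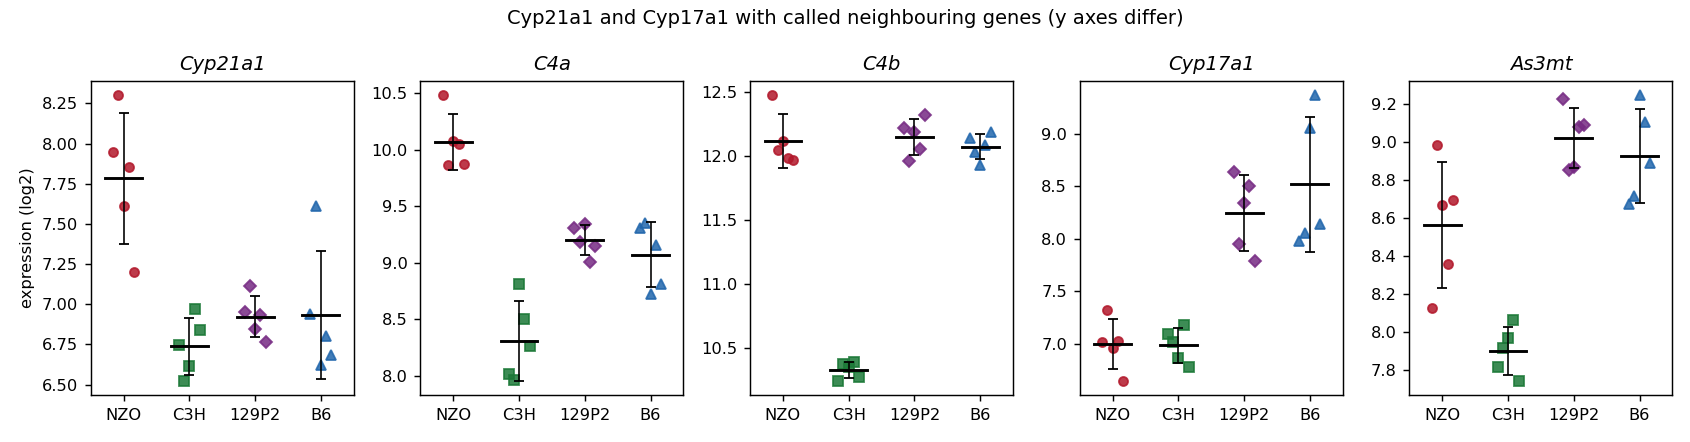
Log2 expression of Cyp21a1 with its neighbours C4a and C4b, and of Cyp17a1 with its neighbour As3mt, by strain on the x axis, with a y axis of its own in each panel. Points are animals, the bar is the mean and the whisker the SD (n = 5); Cyp21a1 and C4a are highest in NZO, and C4b and As3mt lowest in C3H.

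Among the vitamin D enzymes, Cyp2r1 (probe set 10567086), the microsomal enzyme of liver that makes calcifediol, was highest in B6. Its log2 values were 8.07, 7.56, 7.91, 7.83 and 7.57 in NZO, 7.41, 7.72, 7.49, 7.60 and 7.67 in C3H and 7.68, 7.26, 7.86, 8.46 and 7.89 in 129P2. The B6 animals had 8.32, 8.20, 8.38, 8.65 and 8.38. All B6 values lay above those of NZO and C3H, and 129P2 replicate 4 (8.46) overlapped them. Relative to B6 the signal was 65.9% in NZO (-0.60 ± 0.15, SE; limma adjusted p = 0.00993), 57% in C3H (-0.81 ± 0.15; adjusted p = 0.0010) and 68.0% in 129P2 (-0.56 ± 0.15; adjusted p = 0.0243). Exact two-sided permutation gave p = 0.00794, 0.00794 and 0.0397 for these (adjusted 0.0179, 0.0179 and 0.0714 over the 18 tests).

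The interquartile range of an array's values was 2.20 to 2.50 in NZO, 2.17 to 2.40 in C3H, 2.19 to 2.37 in 129P2 and 2.34 to 2.48 in B6. With this range as a covariate the difference of Cyp2r1 from B6 was -0.59 in C3H, still called, and -0.42 in NZO and -0.35 in 129P2, no longer called (limma adjusted p = 0.0576 and 0.169). Against a fold of 1.2 all 3 calls were lost (adjusted p = 0.490 in NZO, 0.0515 in C3H and 0.988 in 129P2). The call for 129P2 was lost without 129P2 replicate 1 or 2 (adjusted p = 0.0593 and 0.0800), without B6 replicate 4 (0.0845), without the 3 arrays of narrowest spread (0.0767) and with only these strains in the fit (0.0807). Cyp27b1, the 1α-hydroxylase known from kidney, was dim on 14 arrays and called in no comparison. Of 5 measured vitamin D genes 4 were tested. Besides Cyp2r1, Dhcr7, which uses up the vitamin D precursor, was called, where 21.7% of all tested genes were called in at least 1 comparison. Dhcr7 was higher in NZO than in 129P2 (0.77 ± 0.19) and higher in C3H than in 129P2 (0.98 ± 0.19).

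In the Cyp2d cluster 8 of 10 members were tested and 2 were called, beside 21.7% of all tested genes called in at least 1 comparison. Cyp2d40 was higher in NZO, with log2 values of 9.92, 9.90, 9.66, 10.40 and 9.97, than in 129P2, with 8.87, 9.0, 9.56, 9.26 and 9.52. These values do not overlap, and the difference was 0.73 ± 0.18 (SE; limma adjusted p = 0.0113). It was not called without the 3 arrays of narrowest spread (0.69; adjusted p = 0.0556) or against a fold of 1.2 (adjusted p = 0.290). The C3H values of 9.60, 9.60, 9.69, 10 and 9.72 lay above those of 129P2 and overlapped those of NZO, and the B6 values of 9.83, 9.58, 8.85, 9.18 and 10.03 overlapped all other strains. Cyp2d22, described as the mouse relative of human CYP2D6, averaged 11.22 ± 0.09 in NZO, 11.56 ± 0.16 in C3H, 11.52 ± 0.12 in 129P2 and 11.47 ± 0.21 in B6 (log2, SD, n = 5). Only NZO minus C3H was called (-0.34 ± 0.10; limma adjusted p = 0.0334), and this call was lost against a fold of 1.2, with equal array medians (adjusted p = 0.0606) and without any 1 of NZO replicates 1, 3, 4 and 5 or C3H replicates 1, 4 and 5 (0.0511 to 0.118). NZO minus 129P2 was -0.30 ± 0.10 (limma adjusted p = 0.0584) and was called in 8 alternatives, among them those without NZO replicate 2 (0.0498), without 129P2 replicate 2 (0.0335) and with array weights (0.00571).

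For Cyp2d10 the differences of NZO were -0.25, -0.24 and -0.25 against C3H, 129P2 and B6 (SE 0.09 each), and none was called (limma adjusted p = 0.101, 0.0910 and 0.0665). With array weights, with quantile normalization or without NZO replicate 1 it was called in all 3 comparisons, with adjusted p of 0.00433 to 0.0488. Cyp2d9, the male-specific testosterone 16α-hydroxylase whose promoter holds TTCCGGGC, averaged 11.69 ± 0.15 in NZO, 11.96 ± 0.09 in C3H, 11.86 ± 0.13 in 129P2 and 11.65 ± 0.46 in B6 (log2, SD, n = 5). It was called in no comparison, and the largest difference was C3H minus B6 (0.31, 95% interval 0.00 to 0.61). The B6 spread came from replicate 3, with 10.90 against 11.55 to 12.08 in the other B6 animals. That animal held the lowest B6 value of every Cyp2d member, among them Cyp2d40 (8.85), Cyp2d22 (11.13), Cyp2d13 (11.16) and Cyp2d37-ps (10.96). Without B6 replicate 3, NZO minus B6 was called for Cyp2d22 (limma adjusted p = 0.0210), and without B6 replicate 5 it was called for Cyp2d40 (adjusted p = 0.0354). Cyp2d26 ranged over 13.04 to 13.35 on the 20 arrays, and no difference between its strain means exceeded 0.09. Cyp2d11, whose window is 89.9% identical to that of Cyp2d9, was dim on 19 arrays. Cyp2d13 and Cyp2d37-ps, annotated as transcribed pseudogenes, were bright on all 20 arrays. The Cyp2d transcripts resemble each other closely, so signal shared between members of the cluster cannot be set apart here.

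Of the Cyp4 enzymes, Cyp4f15, which hydroxylates leukotriene B4, was lower in NZO than in 129P2 (-0.29 ± 0.09) and B6 (-0.34 ± 0.09) and lower in C3H than in B6 (-0.28 ± 0.09; SE; limma adjusted p = 0.0324, 0.0113 and 0.0462). Its means were 10.79 ± 0.09 in NZO, 10.85 ± 0.13 in C3H, 11.08 ± 0.13 in 129P2 and 11.13 ± 0.14 in B6 (log2, SD, n = 5). NZO and B6 values did not overlap, with 10.72 to 10.94 against 10.98 to 11.28, and that call was lost only against a fold of 1.2 among the alternatives run. The NZO minus 129P2 call was lost in 12 of 22 alternatives, among them those without NZO replicate 2, 3, 4 or 5 or 129P2 replicate 1, 2, 3 or 5. The C3H minus B6 call was lost in 13 of 22, among them those without C3H replicate 1, 3, 4 or 5 or B6 replicate 1, 4 or 5. Cyp4b1, a fatty acid hydroxylase, averaged 7.82 ± 0.20 in NZO and 8.15 ± 0.07 in 129P2, without overlap of values (-0.33 ± 0.10; limma adjusted p = 0.0433), a call lost in 11 of 22 alternatives, among them those without NZO replicate 2, 3 or 5 or 129P2 replicate 1, 3, 4 or 5. The other tested Cyp4f genes, Cyp4f13, Cyp4f14, Cyp4f16 and Cyp4f41-ps, differed by at most 0.16 between any strain means and were called in no comparison. Cyp4f14 is known to act on leukotrienes and vitamin E.

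The remaining 23 tested members were called in none of the 6 comparisons. Over these 138 differences the largest was 0.38 in size (Cyp2u1, a fatty acid hydroxylase, C3H minus B6), and the bound of any 95% interval farthest from 0 was 0.73. Without B6 replicate 3 that Cyp2u1 difference was -0.55 and was called (limma adjusted p = 0.0256). For 19 of the 23 every interval lay within 0.5 log2 units of 0. Among the brightest probe sets, the intervals reached at most 0.29 for Cyp2f2, 0.26 for Cyp2j5, 0.22 for Cyp2d26 and 0.34 for Cyp2a12. For Cyp26b1 and Cyp26c1, the retinoic acid hydroxylases that were tested, they reached 0.40 and 0.31. The orphan enzyme Cyp20a1 had a largest difference of 0.07 between strain means. Over all 30 tested members the median spread between the highest and lowest strain mean was 0.18, beside 0.20 over all tested genes.

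Some partners of the P450 enzymes were called between strains. Of the 7 electron donors and membrane partners tested here, 2 were lower in NZO than in C3H, 3 were lower and 1 higher in NZO than in 129P2, and 1 was lower in NZO than in B6, with list medians of -0.21, -0.23 and -0.29 beside 0.00, 0.01 and 0.01 over all tested genes. Between C3H and 129P2, 1 was higher in C3H, and between C3H and B6 0 were called by limma. Between 129P2 and B6, 1 was higher and 1 lower in 129P2. Of all tested genes, 3.09% were lower in NZO than in C3H and 6.64% lower in NZO than in B6. Against 129P2, 4.61% were lower and 4.29% higher in NZO. In C3H 2.25% were higher than in 129P2, and in 129P2 2.11% were higher and 4.08% lower than in B6. Cyb5r3, the cytochrome b5 reductase, was lower in 129P2 than in B6 (-1.02 ± 0.11, SE; limma adjusted p = 1.55e-06), with log2 means of 12.94 in NZO, 13.15 in C3H, 12.10 in 129P2 and 13.12 in B6. Cyb5a, cytochrome b5 itself, was lower in NZO than in 129P2 (-0.49 ± 0.10) and B6 (-0.37 ± 0.10). Fdx1, the ferredoxin of mitochondrial P450s, was lower in NZO than in C3H (-0.53 ± 0.11) and 129P2 (-0.77 ± 0.11). Ephx1, the epoxide hydrolase that takes up P450 products, was lower in NZO than in C3H (-0.48 ± 0.15) and 129P2 (-0.82 ± 0.15).

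Of 11 tested genes of haem synthesis and breakdown, Alad, the aminolevulinate dehydratase, was called in 5 comparisons. Its log2 means were 11.01 in NZO, 11.51 in C3H, 10.38 in 129P2 and 10.27 in B6, so C3H was above B6 by 1.23 ± 0.10 (SE; limma adjusted p = 1.43e-08) and NZO was above B6 by 0.74 ± 0.10 (adjusted p = 2.16e-05). Ppox, called between C3H and B6 (lower in C3H), was the other called gene of this list. Of 18 tested retinoid genes, at most 2 were called in any comparison, and those called at least once were Aldh1a7, Lrat, Rdh11, Stra6l and Dhrs3. Rdh11 was higher in C3H than in 129P2 (1.18 ± 0.24), Stra6l higher in NZO than in C3H (0.42 ± 0.12) and Dhrs3 higher in 129P2 than in B6 (0.31 ± 0.09). Aldh1a7, an aldehyde dehydrogenase, was higher in NZO by 0.97, 0.91 and 0.83 than in C3H, 129P2 and B6 (SE 0.15 each). Lrat, the enzyme that esterifies retinol, was lower in NZO than in 129P2 (-0.67 ± 0.20) and B6 (-0.74 ± 0.20). It is also among the stellate cell markers counted below. Of 5 tested genes of the aryl hydrocarbon receptor list, Cyp1a2 alone was called, lower in NZO than in C3H (-0.51 ± 0.12) and 129P2 (-0.61 ± 0.12). Of 12 tested regulators of sex-biased liver genes, Esr1 alone was called, higher in NZO than in 129P2 (0.39 ± 0.10). Beside the counts of these lists, 5.03% to 10.3% of all tested genes were called in a single comparison and 21.7% in at least 1.

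Of 5 hepatocyte markers, 0 were called by limma in any comparison. Their mean log2 value per array was 13.79 to 13.97 in NZO, 13.84 to 14.00 in C3H, 13.80 to 14.01 in 129P2 and 13.90 to 14.03 in B6. Of 6 endothelial markers, 3 were lower in NZO than in C3H, 4 lower than in 129P2 and 4 lower than in B6, where 3.09%, 4.61% and 6.64% of all tested genes were lower in NZO. Also, 1 was lower in 129P2 than in B6. Their mean log2 value per array was 7.97 to 8.45 in NZO, 8.30 to 8.70 in C3H, 8.39 to 8.83 in 129P2 and 8.46 to 8.97 in B6. Median differences over the 6 were -0.38, -0.49 and -0.49. Of 6 stellate cell markers 1, 2 and 3 were lower in NZO than in C3H, 129P2 and B6, and of 6 Kupffer cell markers 0, 1 and 1. In C3H, 2 Kupffer markers were lower than in 129P2 (list median -0.42) and 1 lower than in B6 (-0.31), and 1 stellate marker was lower than in each, where 2.78% and 5.34% of all tested genes were lower in C3H. In 129P2, 1 Kupffer marker was lower than in B6. None of these endothelial, stellate or Kupffer markers was dim on all 20 arrays. Their part in the NZO and C3H differences of the P450 genes was not tested, and in whole tissue fewer cells of a type and less RNA per cell cannot be told apart. S100a9 of the neutrophil list was higher in NZO than in B6 (0.39 ± 0.11), and Cela1 of the exocrine pancreas list was higher in C3H than in B6 (0.40 ± 0.10). Adipoq and Lep of the adipocyte list, and S100a8, Ly6g and Retnlg of the neutrophil list, were dim on all 20 arrays.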

How the data were processed

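Liver RNA of 20 mice was measured on 1 whole-transcript array each; 150 ng of RNA with an integrity number above 8 was amplified, per the labels' protocols. The log2 values, deposited in 1 table, come from Expression Console (Affymetrix) and RMA, per the submitters' processing notes; versions and genome build are not given in the sources used here. They were used as deposited. Array medians ran from 6.94 to 7.10, and pairwise correlations over all probe sets from 0.966 to 0.989. Interquartile ranges were 2.17 to 2.50. The number of arrays limits the precision.

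Of 35556 probe sets, 21789 had 1 symbol in the platform annotation, 1621 had several and 12146 were unnamed here. Per gene the probe set with the highest mean was taken. Genes above the 40th percentile of their own array on at least 5 arrays were tested, which left 14190 of 19938. limma 3.58.1 (R 4.3.3) was fitted with 1 mean per strain and an intensity trend, on 16 residual and 6.37 prior degrees of freedom, and its p-values were adjusted by Benjamini-Hochberg over the tested genes. The script was tested on simulated data. Alternatives were other filters, other normalizations, array weights, array spread as a covariate, a test against a fold of 1.2, fits on the compared strains only and fits without single animals or the 3 arrays of narrowest spread. Animals are numbered within a strain in series order. Gene order and promoters come from RefSeq (GRCm38.p6), of which 19856 genes matched by Entrez identifier, and windows were aligned with Biopython 1.88. Figures used matplotlib 3.10.9 in Python 3.11.15.

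The members and lists were chosen with earlier results of these data known. Every member could be named. By rule, single values of all animals are printed for called members with a difference of at least 1 log2 unit (Cyp17a1 and Cyp21a1); those of Cyp2r1, Cyp2d40 and C4a, and the neighbours, were added after their values were seen. Called genes of the lists could be named.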

Additional observations from a re-analysis of the deposited data

Results flagged for a closer look

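Of 120 groups of 5 values (30 tested members in 4 strains), 9 held 1 animal that stood apart from the others of its strain by Dixon's criterion, where chance gives about 1 in 20 groups. Low values were those of Cyp2f2 in 129P2 replicate 2 (13.33, next 13.72), Cyp4f14 in the same animal (10.82, next 11.19), Cyp2d9 in 129P2 replicate 1 (11.64, next 11.89), Cyp2u1 in C3H replicate 2 (10.01, next 10.43), Cyp26c1 in B6 replicate 3 (6.84, next 6.95) and Cyp2d34 in the same animal (6.28, next 6.52). High values were those of Cyp11b2 in C3H replicate 3 (7.33, next 6.87), Cyp2d10 in 129P2 replicate 3 (11.71, next 11.52) and Cyp2j5 in NZO replicate 1 (12.53, next 12.38). All are log2 values. None of these genes was called in a comparison. The arrays of 129P2 replicate 2 and C3H replicate 3 were among the 3 of narrowest spread.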

How the results depend on the processing

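The 4 called differences of Cyp17a1 and the differences of Cyp21a1 from C3H and 129P2 kept their direction and stayed called in all 22 alternatives run for each, with adjusted p of at most 0.00798 for Cyp17a1 and 0.0488 for Cyp21a1. No called difference of a member reversed. Against a fold of 1.2, called members numbered 1, 2, 1, 1, 1 and 0 in NZO minus C3H, NZO minus 129P2, NZO minus B6, C3H minus 129P2, C3H minus B6 and 129P2 minus B6, a stricter test by construction. With equal array medians 1 was called in NZO minus C3H and 3 in NZO minus 129P2. In NZO minus 129P2, array weights gave 8 calls, and a fit without the 3 arrays whose values spread least gave 3. In 129P2 minus B6, 0 were called without those 3 arrays or with only these strains in the fit. With array spread as a covariate, 2 were called there (Cyp4b1 and Cyp4f14, higher in 129P2, while Cyp2r1 was lost), and the F-test over strains called 8 members against 5. The cause was not tested. With each animal left out in turn, the counts ran from 1 to 2, 3 to 6, 4 to 5, 1 to 1, 2 to 4 and 0 to 1 in the 6 comparisons, and from 4 to 6 in the F-test. Without a filter on dim genes, Cyp2ab1 and Cyp2j11 were also called, higher in C3H than in B6 (0.32 and 0.31), both dim on all 20 arrays. No paired analysis was run, because each strain had its own 5 animals and the labels pair none of them.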
